A study of Mus musculus with 12 samples.

Results

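Prox1 and 3 genes commonly used to mark lymphatic vessels, Lyve1, Pdpn and Flt4, were followed in mouse pancreatic islets before and after transplantation into the subcutaneous fat of the groin. They are 4 of the 23234 gene symbols in the table, chosen by name. Prox1 was added because its level was lower in grafts while other vessel genes were higher, so the graft and islet values that chose it are given here as a description, with no test. The 12 RNA sequencing libraries fall into 3 groups of 4. They are isolated islets, grafts taken on day 60 and grafts taken on day 120, all labelled as islet tissue of the C57BL/6 strain. The labels give no age, no sex and no strain of the recipient, and do not say whether libraries of a group came from separate animals, so the spread between them may be technical. Values are FPKM, the fragments of a gene scaled to the length of the gene and to the number of mapped fragments, as deposited by the authors.

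Lymphatic vessels return tissue fluid and immune cells to the blood. Their endothelial cells arise from venous endothelium when Sox18 and Nr2f2 switch on Prox1, a homeobox transcription factor that then maintains lymphatic identity. Flt4 is VEGFR-3, the receptor through which Vegfc and Vegfd drive lymphatic growth, Lyve1 is a hyaluronan receptor and Pdpn is podoplanin, the ligand of the platelet receptor Clec1b. None of the 4 is restricted to lymphatic vessels. Prox1 is also made by liver cells, neurons and pancreatic epithelium, Flt4 by some fenestrated blood vessels, Lyve1 by a class of tissue macrophages, and Pdpn by fibroblasts and mesothelium.

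RefSeq promoter windows (build GRCm38.p6) matched 3 of the 4 genes by symbol. The 250 bases before each annotated start are shown because the table gives Prox1 as 1 row although it has 2 annotated starts, and because Prox1 and Pdpn differed in direction between grafts and islets. Capitals mark matches on either strand to GGGCGG, known as the GC box, to AGGTCA, the half-site of nuclear receptors such as Nr2f2, to the TATA box TATAAA, to the E-box written CACGTG, and to the SOX core AACAAT. No matches overlapped each other.
Prox1, first start, chr1:190170828-190171077, minus strand: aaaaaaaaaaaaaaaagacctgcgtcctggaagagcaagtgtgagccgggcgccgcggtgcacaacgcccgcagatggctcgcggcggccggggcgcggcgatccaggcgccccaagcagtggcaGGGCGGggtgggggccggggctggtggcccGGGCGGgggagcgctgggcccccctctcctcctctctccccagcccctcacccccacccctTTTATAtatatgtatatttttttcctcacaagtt
Prox1, second start, chr1:190169516-190169765, minus strand: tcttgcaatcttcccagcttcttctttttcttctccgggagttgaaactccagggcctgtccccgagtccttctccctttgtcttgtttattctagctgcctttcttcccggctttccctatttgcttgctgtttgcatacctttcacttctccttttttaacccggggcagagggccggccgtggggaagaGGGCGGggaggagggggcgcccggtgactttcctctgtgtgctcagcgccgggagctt
Pdpn, chr4:143299565-143299814, minus strand: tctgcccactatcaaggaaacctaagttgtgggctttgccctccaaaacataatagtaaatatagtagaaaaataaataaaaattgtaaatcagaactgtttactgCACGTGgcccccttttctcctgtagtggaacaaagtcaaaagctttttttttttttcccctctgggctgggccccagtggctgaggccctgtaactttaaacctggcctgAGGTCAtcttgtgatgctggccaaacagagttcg
Flt4, chr11:49609429-49609678, plus strand: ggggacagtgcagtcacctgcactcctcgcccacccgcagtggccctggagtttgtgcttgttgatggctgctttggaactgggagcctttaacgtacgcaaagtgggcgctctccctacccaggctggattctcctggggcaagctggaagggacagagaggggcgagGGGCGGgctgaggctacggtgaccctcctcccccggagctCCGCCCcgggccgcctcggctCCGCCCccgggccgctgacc
GGGCGG occurred 2 times before the first Prox1 start, 1 time before the second and 3 times before the Flt4 start, and 32.7% of 32851 windows of this length hold it. TATAAA was found once, before the first Prox1 start (12.4% of windows). The Pdpn window held 1 AGGTCA and 1 CACGTG, present in 14% and 6.02% of windows, and AACAAT (9.42% of windows) was in none of the 4. In the GENCODE M21 annotation the antisense gene Prox1os overlaps Prox1 by 419 bases. No use of strand in counting is given in the sources used here, so reads of the pair cannot be told apart there.

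All 4 genes reached 1 FPKM in at least 4 libraries and so were among the 13433 genes tested, and none was listed at 0 in any library. Prox1 and Flt4 passed this filter in all 12 libraries, and Lyve1 and Pdpn in 11, of which 3 were isolated islets. All 22 genes of an endocrine list were above 0 in every library, with sums from 4652 to 17723 FPKM. Hormone genes were less even. Ins2 reached 293150 FPKM (islet replicate 3) and 316265 FPKM (islet replicate 4) but was listed at 0 everywhere else. Ins1 was listed at 0 only in day 60 graft replicate 4, although the 7 hormone genes summed to 79312 FPKM there. The cause of these entries was not tested, so a listed 0 is not read as absence of RNA. Some libraries stood apart. Day 60 graft replicate 1 had the lowest endocrine sum, 4652 FPKM against 9351 to 17084 in the other day 60 grafts, and the highest fibroblast sum, 6071 against 864 to 1131. Isolated islet replicate 1 had the highest Krt19 level, 95.6 FPKM against 9.26 to 20.3 in the other isolated islets. Results that lean on these libraries are given without them where this changes a count or a value. Leaving libraries out also changes how many of all genes pass, so nothing is read from such shifts in counts.

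Prox1 had the highest level of the 4 genes in isolated islets and the lowest mean in both graft groups. It measured 9.77, 9.18, 10.995 and 7.54 FPKM in isolated islets, 1.03, 2.39, 3.09 and 1.89 FPKM in day 60 grafts, and 4.76, 3.72, 3.35 and 2.41 FPKM in day 120 grafts. Every graft was below every isolated islet library, and the graft ages overlapped. The means were 2.1 ± 0.867 FPKM in day 60 grafts and 3.56 ± 0.971 in day 120 grafts, against 9.37 ± 1.44 in isolated islets (SD, n = 4 each). On the log2(FPKM + 1) scale, which understates the change of low genes, the difference was -1.78 (SE 0.233) at day 60 and -1.20 (SE 0.233) at day 120. Without both isolated islet replicate 1 and day 60 graft replicate 1 these were -1.57 and -1.18. In bulk RNA, fewer cells that express a gene and less RNA per cell cannot be told apart.

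Some lymphatic genes were low in the isolated islets and others were present. The highest isolated islet value was 0.0330 FPKM for Mmrn1, a protein stored in lymphatic endothelium, and 0.243 FPKM for Ccl21a, the chemokine by which lymphatic vessels attract dendritic cells. Reln, a secreted protein of collecting lymphatics, was at 0.411 to 0.600 FPKM there, and Foxc2, a regulator of lymphatic valves, at 0.129 to 0.761. The Prox1 paralogue Prox2 stayed at or below 1.15 FPKM in all libraries and was not tested. In the same isolated islets Flt4 was at 1.32 to 2.40 FPKM, Lyve1 at 0.850 to 2.88, Sox18 at 1.75 to 2.64 and Nrp2, a Vegfc coreceptor gene, at 1.61 to 5.10. The cells that held the Prox1 RNA cannot be told from bulk values.

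Flt4, the lymphatic growth factor receptor, was low in all groups, and spread more between grafts than between isolated islets. It measured 1.66, 2.02, 2.40 and 1.32 FPKM in isolated islets, 1.11, 1.99, 1.66 and 4.33 FPKM in day 60 grafts, and 5.21, 2.22, 2.02 and 5.58 FPKM in day 120 grafts. The 3 high values were day 60 graft replicate 4 and day 120 graft replicates 1 and 4, and each graft group overlapped the isolated islets. Its log2 difference from isolated islets was 0.12 (SE 0.323) at day 60, turning to -0.062 after scaling to a sum without hormone and acinar genes, to -0.33 after quantile normalization and to -0.14 without day 60 graft replicate 4. At day 120 it was 0.66 (SE 0.323).

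Lyve1, the hyaluronan receptor, was higher in every day 60 graft than in every isolated islet library. It measured 2.88, 1.72, 1.36 and 0.850 FPKM in isolated islets, 15.8, 6.44, 4.85 and 4.23 FPKM in day 60 grafts, and 8.18, 3.96, 2.18 and 7.97 FPKM in day 120 grafts. Day 120 graft replicate 3 lay within the range of the isolated islets. The means were 7.83 ± 5.39 FPKM in day 60 grafts and 5.57 ± 2.98 in day 120 grafts, against 1.70 ± 0.865 in isolated islets (SD, n = 4 each). The log2 difference was 1.59 (SE 0.413) at day 60 and 1.21 (SE 0.413) at day 120, or 1.42 and 1.40 without both libraries that stood apart.

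Pdpn, podoplanin, depended most on single libraries. It measured 5.31, 1.22, 0.857 and 2.42 FPKM in isolated islets, 22.9, 5.19, 4.91 and 4.53 FPKM in day 60 grafts, and 4.36, 3.58, 2.84 and 7.05 FPKM in day 120 grafts. The highest isolated islet library was replicate 1, and it overlapped both graft groups, while the other 3 lay below every graft. The means were 9.39 ± 9.04 FPKM in day 60 grafts and 4.46 ± 1.83 in day 120 grafts, against 2.45 ± 2.02 in isolated islets (SD, n = 4 each). The log2 difference was 1.44 (SE 0.485) at day 60 and 0.77 (SE 0.485) at day 120. It was 0.93 at day 60 without day 60 graft replicate 1, and 1.79 at day 60 and 1.12 at day 120 without isolated islet replicate 1.

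**Figure D1:**
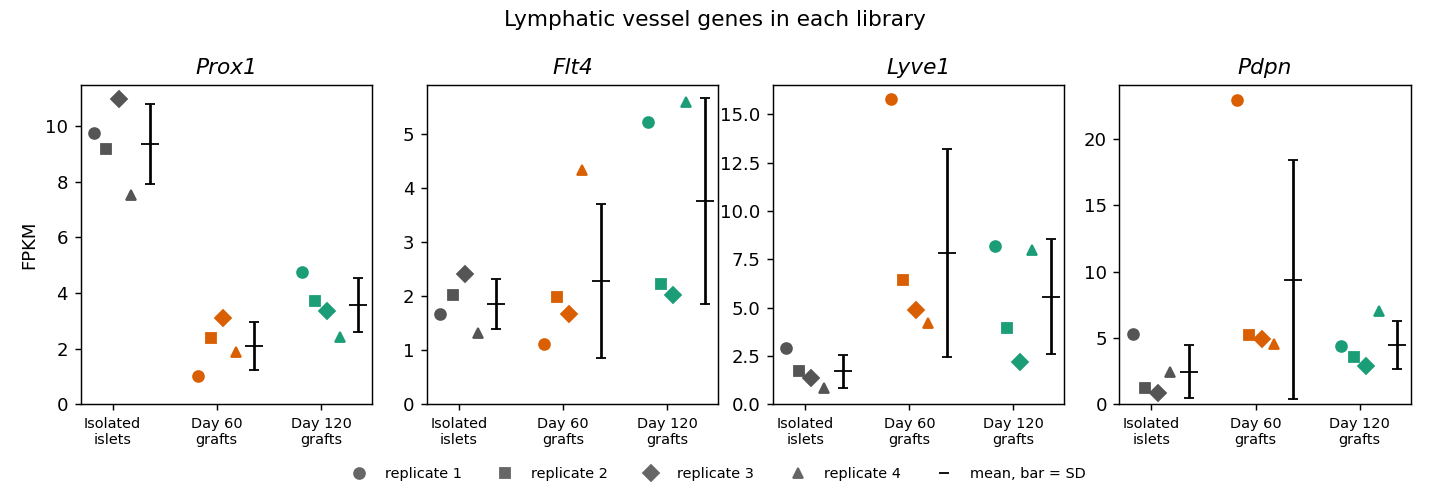
FPKM of Prox1, Flt4, Lyve1 and Pdpn in each of 12 libraries, by group, with a marker shape for each replicate number and the mean with its SD as a bar beside the points. Prox1 is lower in all 8 grafts than in all 4 isolated islet libraries, whereas Lyve1 and Pdpn reach their highest values, 15.8 and 22.9 FPKM, in day 60 graft replicate 1.

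At day 60, 2 of the 4 genes did not overlap isolated islets, Prox1 lower and Lyve1 higher, where 31.1% of all tested genes did not overlap in this comparison. At day 120 only Prox1 did not overlap among the 4, beside 35.5% of all tested genes. These contrasts chose the genes, so nothing is read from the counts. The order of mean levels, comparable because FPKM is per length, was Prox1, Pdpn, Flt4 and Lyve1 in isolated islets, and only Prox1 stood clear of its neighbour there. It was Pdpn, Lyve1, Flt4 and Prox1 in day 60 grafts, and Lyve1, Pdpn, Flt4 and Prox1 in day 120 grafts, where the values of all neighbours in the order overlapped.

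The graft ages were compared to ask whether the 4 genes moved further between day 60 and day 120. Day 60 libraries entered both this comparison and the choice of Prox1. None of the 4 passed limma with Benjamini-Hochberg adjustment over 13433 genes. Prox1 was higher at day 120 by log2 0.58 (SE 0.233, 95% interval 0.0732 to 1.08, unadjusted p = 0.0280, adjusted p = 0.490 by limma), and it was higher in 4 of 4 pairs of grafts with the same replicate number. Flt4 differed by 0.54 (interval -0.160 to 1.24, limma adjusted p = 0.522), also higher in 4 of 4 pairs. Lyve1 differed by -0.39 (interval -1.28 to 0.503, limma adjusted p = 0.709) and Pdpn by -0.67 (interval -1.72 to 0.383, limma adjusted p = 0.587), each higher at day 120 in 1 of 4 pairs. Grafts with the same number deviated from their group means together, so a fit with the number as a block also applies, and it changed none of these calls (Prox1 adjusted p = 0.372 by limma). Without day 60 graft replicate 1 the differences were 0.39 for Prox1, 0.36 for Flt4, -0.025 for Lyve1 and -0.16 for Pdpn. All 4 genes overlapped between the graft ages. Over all genes 0.0149% passed, which is 2 genes, while 1356 (10.1%) had an unadjusted p under 0.05, and 4.29% did not overlap.

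Measured against other genes of the same library, Prox1 was low in grafts relative to both endocrine and endothelial RNA. The first measure is log2(FPKM + 1) of Prox1 minus the mean over 22 endocrine genes. It was -5.60 ± 0.59 in day 60 grafts and -5.71 ± 0.41 in day 120 grafts, against -4.09 ± 0.14 in isolated islets (SD, n = 4 each). No graft, at -4.92 or lower, reached the isolated islets, at -4.21 or higher. The graft ages differed by -0.11 (exact two-sided permutation p = 0.743), and the sign turned to 0.11 without day 60 graft replicate 1 and to 0.055 without day 120 graft replicate 4. Relative to 25 endothelial genes such as Pecam1 and Cdh5, Prox1 was at -1.92 ± 0.98 in day 60 grafts and -1.10 ± 0.66 in day 120 grafts, against 0.68 ± 0.15 in isolated islets (SD, n = 4 each). The graft ages differed by 0.82 there (exact two-sided permutation p = 0.200), with day 120 higher by 1.97, 0.90, 0.31 and 0.11 in the 4 same-numbered pairs (paired exact p = 0.125, the smallest that 4 pairs allow).

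Flt4 kept close to the endothelial genes in most libraries. Its level minus their mean was -1.89 ± 0.89 in day 60 grafts and -1.10 ± 0.14 in day 120 grafts, against -1.19 ± 0.11 in isolated islets (SD, n = 4 each). Day 60 graft replicate 1, at -3.19, was the lowest, and the other day 60 grafts lay between -1.67 and -1.16. The graft ages differed by 0.79 (exact two-sided permutation p = 0.0857), or by 1.03 at p = 0.0286, the smallest that 3 against 4 libraries allow in this exact permutation, without day 60 graft replicate 4. This permutation ignores the pairs. Day 120 was higher by 2.02, 0.54, 0.41 and 0.18 in the 4 pairs (paired exact p = 0.125, the smallest that 4 pairs allow). Without day 60 graft replicate 1 the difference was 0.35 (exact permutation p = 0.143). Lyve1 relative to endothelial genes was at -0.53 ± 0.46 in day 60 grafts and -0.67 ± 0.36 in day 120 grafts, against -1.31 ± 0.46 in isolated islets (SD, n = 4 each). Pdpn was at -0.45 ± 0.58 in day 60 grafts and -0.87 ± 0.39 in day 120 grafts, against -1.07 ± 0.91 in isolated islets (SD, n = 4 each). Between the graft ages Lyve1 differed by -0.14 (exact two-sided permutation p = 0.543) and Pdpn by -0.42 (p = 0.314).

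**Figure D2:**
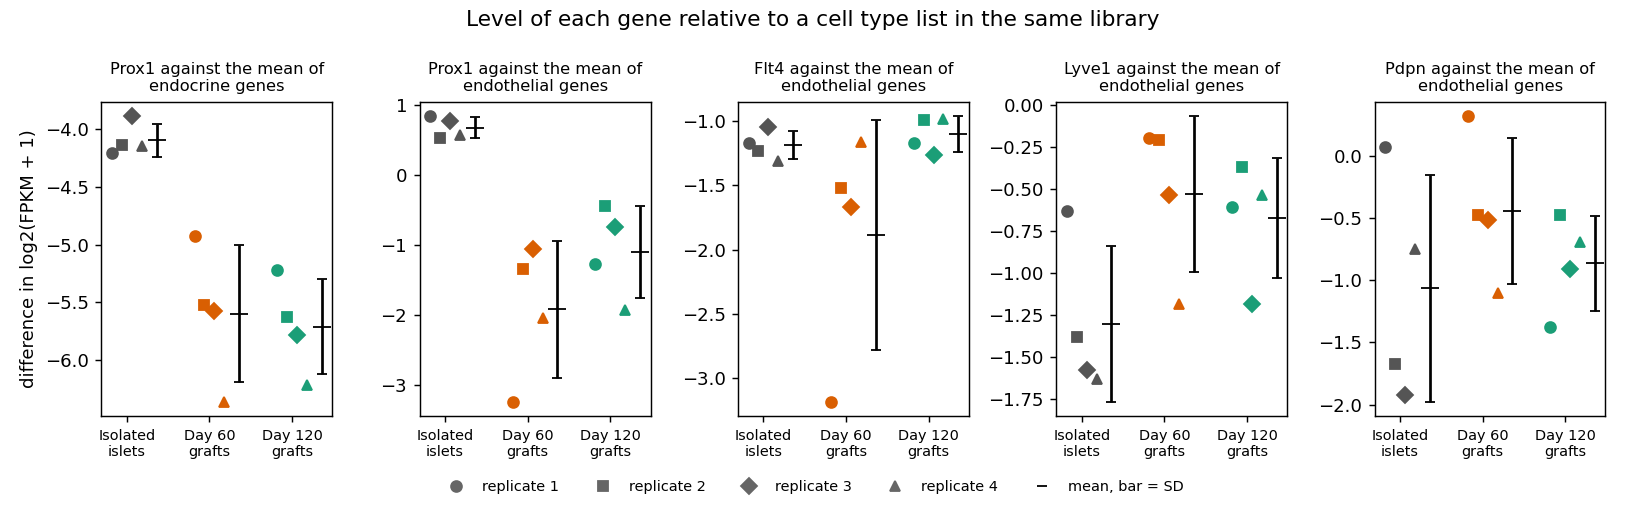
log2(FPKM + 1) of each gene minus the mean over an endocrine or endothelial list in the same library, by group, with a marker shape for each replicate number and the mean with its SD as a bar. Prox1 is lower in every graft than in every isolated islet library against both lists, and Flt4 is lowest in day 60 graft replicate 1 at -3.19.

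Other genes of the lymphatic pathway are given next by their calls. Of 40 other genes on lists of lymphatic identity and of lymphatic growth signals, 27 were tested and 13 were too low. At day 60, 14 rose and 1 fell by limma, where 43.7% of all tested genes passed (31.3% rose and 12.3% fell), and the median log2 difference was 1.23 against 0.27 over all tested genes. At day 120, 12 rose and 1 fell, where 31.4% of all tested genes passed (24.3% rose and 7.03% fell), with a median of 0.78 against 0.30. Both comparisons share the isolated islets. That vessel genes were higher in these grafts was known when Prox1 was chosen, so the counts describe the lists and nothing is read from them. Of the genes that rose, 4 at day 60 and 6 at day 120 had no isolated islet library at 1 FPKM. These had to be higher. Only 5 of the 14 at day 60 and 4 of the 12 at day 120 reached 1 FPKM in all 4 isolated islet libraries. The others could pass the filter only with graft libraries, and no support is drawn from them. Of the 27 genes, 7 also stand on another list, among them Kdr, Tie1, Tek and Cldn5 on the blood and pan-endothelial list and Thy1 on the fibroblast list. The count at day 60 was 15 higher and 1 lower without both libraries that stood apart, and at day 120 it was 16 higher and 2 lower. The count at day 120 fell to 5 higher and 1 lower without isolated islet replicate 2, 3 or 4 or day 120 graft replicate 1, and to 6 and 1 without day 120 graft replicate 4. With quantile normalization 9 rose and 2 fell at day 60 and 5 rose and 2 fell at day 120, and with scaling to the endocrine genes 11 rose and 1 fell at day 60 and 1 rose and 1 fell at day 120. Calls over all genes moved as well. They were 5865 at day 60 and 4212 at day 120, 5304 and 3355 with quantile normalization, and 3241 and 443 with endocrine scaling. At day 120 they ran from 1986 to 6031 with single libraries left out, and also rose without both libraries that stood apart. Nothing is read from these shifts.

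Among the regulators that specify lymphatic cells, Sox18 rose in grafts of both ages. It averaged 10.97 FPKM in day 60 grafts and 10.0 in day 120 grafts, against 2.24 in isolated islets (log2 1.72 and 1.61, limma adjusted p = 0.00759 and 0.0162). Nr2f2, which partners Prox1 and switches it on in veins, averaged 4.36 FPKM in day 60 grafts and 3.32 in day 120 grafts, against 1.41 in isolated islets, and passed only at day 60 (log2 1.18, limma adjusted p = 0.0273; 0.78 and 0.134 at day 120). Nr2f2 reached 1 FPKM in 1 isolated islet library, so it passed the filter only with graft libraries and no support is drawn from its call. Nfatc1, a calcium-regulated factor of lymphatic patterning, rose at both ages (0.73 and 0.86). The integrin subunit gene Itga9, needed for lymphatic valves, did not pass (0.33 and 0.32). The adhesion gene Thy1 rose at both ages (2.07 and 0.93). The tight junction gene Cldn5 was at 2.87 to 25.7 FPKM in day 60 grafts and 0.469 to 6.95 in day 120 grafts, against 0.241 to 0.395 in isolated islets, so it passed the filter only through the grafts.

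Growth signals differed from gene to gene. Of 15 tested genes on that list 8 rose and 1 fell at day 60, and 5 rose and 1 fell at day 120. Over all tested genes 31.3% rose and 12.3% fell at day 60, and 24.3% and 7.03% at day 120. Of the genes on the list that rose, 3 at day 60 and 2 at day 120 had no isolated islet library at 1 FPKM. Only 2 of the 8 at day 60 and 1 of the 5 at day 120 reached 1 FPKM in all 4 isolated islet libraries. Nothing is read from these counts. Vegfc, the main ligand of Flt4, averaged 3.51 FPKM in day 60 grafts and 2.09 in day 120 grafts, against 0.888 in isolated islets, and passed at day 60 only (log2 1.17, limma adjusted p = 0.00471; 0.71 and 0.0554 at day 120). Figf, which encodes Vegfd, averaged 7.47 FPKM in day 60 grafts and 1.94 in day 120 grafts, against 0.0963 in isolated islets (log2 2.51 and 1.39), and passed the filter only through the grafts. Its day 60 mean leaned on replicate 1, at 19.7 FPKM against 1.75 to 5.24 in the other day 60 grafts, and without that library the day 60 difference was 1.93. At day 120 Figf missed the threshold without isolated islet replicate 1 (1.35, limma adjusted p = 0.0610), whereas Vegfc passed without day 60 graft replicate 1 (0.71, limma adjusted p = 0.00690). The growth factor gene Igf1 (3.48 and 2.13), and Calcrl (1.47 and 1.18) and Ramp2 (1.69 and 1.12), whose products form the adrenomedullin receptor, also rose at both ages. Igf1 and Calcrl each reached 1 FPKM in 1 isolated islet library and Vegfc in 2. These genes passed the filter only with graft libraries, so no support is drawn from their calls. Igf1 was at 86.1 FPKM in day 60 graft replicate 1, and its day 60 difference was 2.78 without that library. The fall was in Met, the receptor of hepatocyte growth factor (-2.24 and -2.36). Of the receptors that act beside Flt4, Kdr (-0.61 and -0.12), Nrp2 (0.14 and -0.22) and Tie1 (0.56 and 0.44) did not pass at either age.

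**Figure D3:**
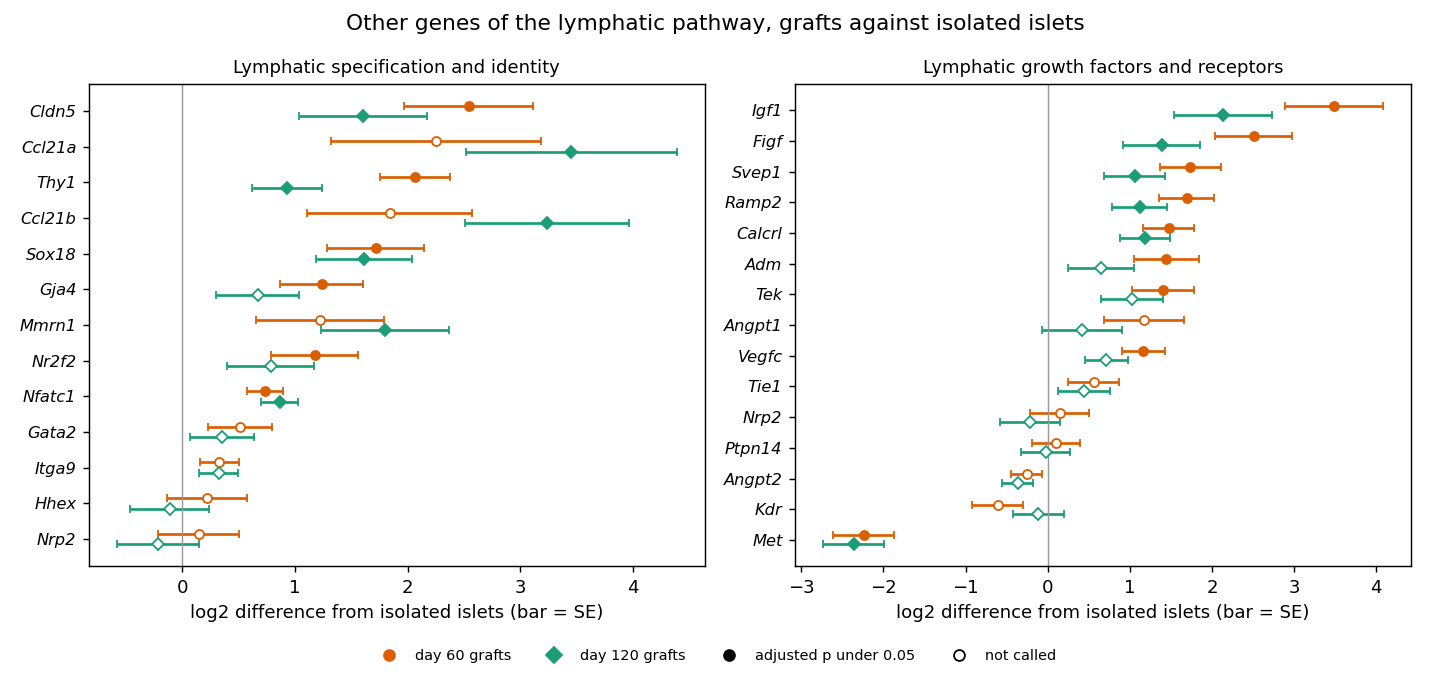
log2 difference from isolated islets of the tested genes on both lymphatic lists, day 60 grafts above and day 120 grafts below in each row, with the SE as a bar. Filled symbols had an adjusted p under 0.05 by limma over all genes, and of these Met alone lies below 0.

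Ccl21a and Mmrn1, both named above as lymphatic genes, varied widely between grafts of the same age. Ccl21a was at 0.167, 22.6, 0.539 and 15.9 FPKM in day 60 grafts and at 31.6, 5.69, 4.00 and 17.3 FPKM in day 120 grafts. Mmrn1 was at 0.472, 4.92, 0.187 and 2.04 FPKM in day 60 grafts and at 9.02, 0.826, 0.714 and 3.87 FPKM in day 120 grafts. Both were low in day 60 graft replicates 1 and 3 and high in replicates 2 and 4, and at day 120 they were highest in replicates 1 and 4, where Flt4 was also highest. Prox1 shared only part of this order, since it was highest of all grafts in day 120 graft replicate 1 and lowest of its age in day 120 graft replicate 4. Against isolated islets, Ccl21a and Mmrn1 did not pass at day 60 (log2 2.25 and 1.23, limma adjusted p = 0.0683 and 0.0964) and were higher at day 120 (3.46 and 1.80, limma adjusted p = 0.0185 and 0.0319). Neither reached 1 FPKM in any isolated islet library, so both entered the test only through the grafts and had to be higher. Ccl21a and Ccl21b are near-identical copies whose reads the counting could split, so the level of each is uncertain.

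Day 60 graft replicate 2 differed from other grafts in lymphocyte genes. The T cell gene Cd3e was at 8.91 FPKM in it and at 2.11 or lower in every other library. Glycam1, a gene of lymph node venules named after its values were seen, was at 11.959 FPKM in it and at 1.504 or lower elsewhere. The 15 genes of the lymph node and lymphocyte list summed to 193 FPKM in this library, against 10.0 to 49.4 in the other 7 grafts. Ccl21a is also made by lymph node stroma; the part of such tissue in the Ccl21a value of this graft was not tested. In day 60 graft replicate 4 and day 120 grafts 1 and 4, where Ccl21a was also high, Cd3e was at 0.922, 0.531 and 0.296 FPKM.

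**Figure D4:**
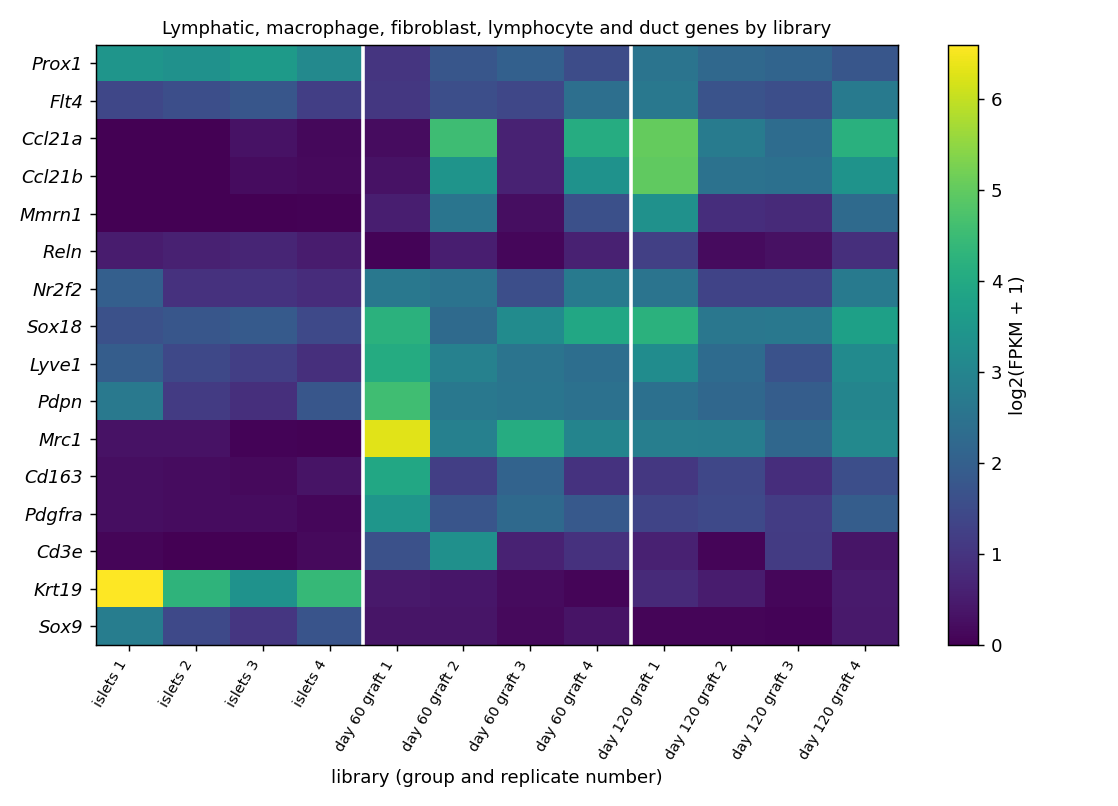
Colour gives log2(FPKM + 1) of 16 genes in each of 12 libraries, isolated islets at the left, then day 60 and day 120 grafts, parted by white lines. Ccl21a, Ccl21b and Mmrn1 are high in day 60 graft replicates 2 and 4 and day 120 graft replicates 1 and 4, Lyve1, Pdpn, Mrc1 and Pdgfra peak in day 60 graft replicate 1, and Krt19 and Sox9 are higher in all isolated islets than in all grafts.

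Macrophage, fibroblast and adipocyte genes peaked in the same library as Lyve1 and Pdpn, day 60 graft replicate 1. So did the sums of the blood and pan-endothelial list, at 650 FPKM, and of the lymphatic growth list, at 257 FPKM. Of 16 tested macrophage genes, 16 were called higher at day 60 and 14 at day 120 by limma, against 31.3% and 24.3% of all tested genes, but 8 of the 16 reached 1 FPKM in no isolated islet library and had to be higher. F13a1 and Stab1 reached 1 FPKM in 1 isolated islet library each, so they too passed the filter only with grafts. Without day 60 graft replicate 1 the count of macrophage genes called higher was 16 at both ages. The list summed to 498 to 4848 FPKM in day 60 grafts and 357 to 609 in day 120 grafts, against 57.4 to 86.0 in isolated islets, where 2 to 4 of its 17 genes were at 0. The mannose receptor gene Mrc1, found on Lyve1-bearing tissue macrophages, was at 77.3 FPKM in day 60 graft replicate 1 and at 3.60 to 15.8 in the other grafts, against 0.254 or lower in isolated islets. The fibroblast and mesothelial list of 17 genes summed to 864 to 6071 FPKM in day 60 grafts and 347 to 882 in day 120 grafts, against 45.5 to 79.6 in isolated islets. Of its 14 tested genes, 12 were called higher and 1 lower at day 60, and 9 higher and 1 lower at day 120, beside the same shares of all genes. Of these 14, 4 reached 1 FPKM in no isolated islet library and Lum in 1, so these passed the filter only with grafts. Without day 60 graft replicate 1 the count was 12 higher and 1 lower at both ages. The fibroblast receptor gene Pdgfra was at 10.1 FPKM in day 60 graft replicate 1 and at 1.26 to 3.78 in the other grafts, against 0.180 or lower in isolated islets. The gene that fell was Msln, a mesothelial marker, at 0.537 FPKM on average in day 60 grafts and 0.913 in day 120 grafts, against 8.08 in isolated islets, with its highest value, 14.5, in isolated islet replicate 1. The 12 adipocyte genes summed to 11606 FPKM in day 60 graft replicate 1 and 355 to 3584 in the other day 60 grafts, and to 316 to 1105 in day 120 grafts, against 60.5 to 72.5 in isolated islets, with no gene at 0. Of these 12, 10 were called higher at day 60 and 9 at day 120, and the median log2 differences were 4.76 and 3.23. Of those called, 2 had no isolated islet library at 1 FPKM. Cidec reached 1 FPKM in 1 isolated islet library and Retn in 2, so they also passed the filter only with grafts. The part of macrophages, fibroblasts, adipocytes or endothelium in the Lyve1 and Pdpn values was not tested.

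Of 25 tested blood and pan-endothelial genes, 12 rose at day 60, against 31.3% of all tested genes. At day 120, 8 rose and 1 fell, near the shares of all tested genes (24.3% and 7.03%). Of the 25 genes, 3 reached 1 FPKM in no isolated islet library and Erg in 2, so these passed the filter only with grafts. The list summed to 248 to 650 FPKM in day 60 grafts and 207 to 478 in day 120 grafts, against 216 to 284 in isolated islets. The sum of 650 FPKM was in day 60 graft replicate 1, where Lyve1 and Pdpn also peaked. The endothelial adhesion genes Pecam1 (log2 0.62 and 0.23) and Cdh5 (-0.22 and -0.59) did not pass at either age. Cd34 (2.34 and 1.46) and Egfl7 (1.29 and 1.12), a protein secreted by endothelium, rose at both, and none of the 25 genes was at 0 in any library.

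Duct genes were low in the same libraries as Prox1. Of 11 tested, 6 were called lower at day 60 and 7 at day 120 by limma, against 12.3% and 7.03% of all tested genes, and 3 of the 11, Krt19 and Sox9 among them, reached 1 FPKM in isolated islets only and had to be lower. The 15 genes of the list summed to 181 to 405 FPKM in day 60 grafts and 331 to 383 in day 120 grafts, against 836 to 1183 in isolated islets. Krt19, a keratin of duct cells, was at 0.0570 to 0.379 FPKM in day 60 grafts and 0.0850 to 0.720 in day 120 grafts, against 9.26 to 95.6 in isolated islets. Sox9, a duct transcription factor, was at 0.126 to 0.305 FPKM in day 60 grafts and 0.050 to 0.370 in day 120 grafts, against 1.07 to 5.96 in isolated islets. In isolated islet replicates 1 to 4 Krt19 was at 95.6, 18.4, 9.26 and 20.3 FPKM, and Prox1 at 9.77, 9.18, 10.995 and 7.54. The 19 acinar genes summed to 27.5 to 53.3 FPKM in day 60 grafts and 29.1 to 40.0 in day 120 grafts, against 7744 to 88681 in isolated islets. In isolated islet replicates 1 to 4 the acinar sum was 7744, 68747, 17655 and 88681 FPKM. Of 22 endocrine genes, 0 rose and 3 fell at day 60, and 2 rose and 0 fell at day 120 by limma. Over all tested genes 31.3% rose and 12.3% fell at day 60, and 24.3% and 7.03% at day 120. Without day 60 graft replicate 1, 6 rose and 3 fell at day 60, and 8 rose and 0 fell at day 120. The part of duct or acinar RNA in the Prox1 values was not tested.

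Of 9 tested genes whose products work with Prox1, 3 rose and 3 fell at day 60, where 31.3% of all tested genes rose and 12.3% fell. At day 120, 2 rose and 3 fell, where 24.3% rose and 7.03% fell. The counts of genes that rose are near those shares, and with so few genes nothing is read from the others. Ets2, whose product cooperates with Prox1 in lymphatic cells, fell at both ages (log2 -2.42 and -2.08), as did the nuclear receptor gene Rora (-1.91 and -1.93). The histone deacetylase gene Hdac3, a corepressor partner, rose at both ages (0.66 and 0.60).

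Of 6 tested hyaluronan genes, 3 rose and 1 fell at day 60, where 43.7% of all tested genes passed, and 3 rose and 0 fell at day 120, where 31.4% passed. Without day 60 graft replicate 1, 2 rose and 1 fell at day 60. Cd44, the main hyaluronan receptor and a podoplanin partner, averaged 21.3 FPKM in day 60 grafts and 22.4 in day 120 grafts, against 10.4 in isolated islets (log2 0.96 and 1.03, limma adjusted p = 0.000730 and 0.000926). Stab1, a scavenger receptor of macrophages and lymphatic endothelium, rose by 2.21 and 1.46. It reached 1 FPKM in 1 isolated islet library, so it passed the filter only with graft libraries. Tmem2, a hyaluronidase of the cell surface, fell at day 60 (-0.62). Of 10 tested podoplanin partners, 3 rose and 2 fell at day 60, and 2 rose and 1 fell at day 120, beside the same shares. Without isolated islet replicate 1, 1 rose and 3 fell at day 60, and 2 rose and 3 fell at day 120. Ezr, the ezrin gene whose product links podoplanin to actin, fell at both ages (-1.18 and -1.38). Clec1b, named after its values were seen and too low to test, was listed at 0 in all isolated islets and reached 10.6 FPKM in day 120 graft replicate 1, against 2.43 or lower in the other grafts.

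Between the graft ages 0 of the 27 tested lymphatic list genes passed limma, and 3 had an unadjusted p under 0.05, all lower at day 120, which is near the 10.1% of all tested genes. Their median log2 difference was -0.33 against 0.03 over all tested genes. The macrophage and fibroblast lists likewise had 0 calls by limma, with 5 of 16 and 8 of 14 at an unadjusted p under 0.05, all lower at day 120, and 11 of 22 endocrine genes were at an unadjusted p under 0.05, all higher at day 120, beside the same 10.1%.

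The genes closest to Prox1 over the 12 libraries were found by the root mean square difference between profiles, each centred on its own mean of log2(FPKM + 1). They were Glis3 at 0.181, Abhd2 at 0.223, Dyrk2 at 0.227, Ankrd33b at 0.238 and Mia2 at 0.246, where a gene with a flat profile would be at 0.793. Glis3, an islet transcription factor gene, was at 1.59 to 4.57 FPKM in day 60 grafts and 4.69 to 8.39 in day 120 grafts, against 7.82 to 14.3 in isolated islets. Closest to Lyve1 were Arrb1 at 0.230, Cald1 at 0.235 and Wfdc1 at 0.273, with a flat profile at 0.889. Calcrl, from the lymphatic growth list, followed Pros1 at 0.278. Closest to Pdpn were Tm4sf1 at 0.250, Ddah2 at 0.280 and Myof at 0.284 (flat, 0.901). The closest to Flt4, Ccdc8 at 0.263 and Igsf11 at 0.269, were less distinct from a flat profile at 0.517.

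**Figure D5:**
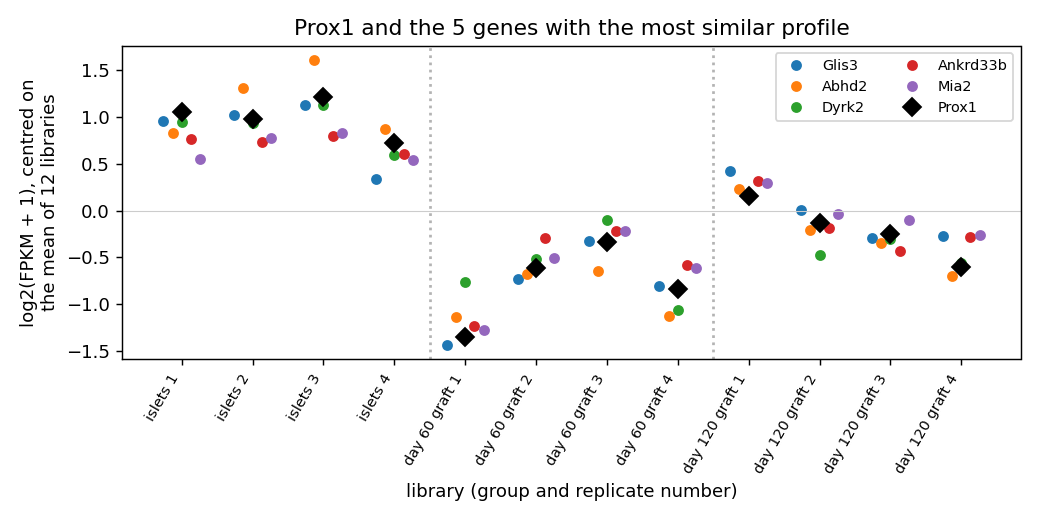
Each point is log2(FPKM + 1) in a library minus the mean of that gene over 12 libraries, for Prox1 (black diamonds) and the 5 genes most like it. All 6 genes are above their mean in the 4 isolated islet libraries and below it in the 4 day 60 grafts, with the lowest Prox1 value in day 60 graft replicate 1.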

How the data were processed

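RNA of 12 libraries was measured by sequencing. A SMARTer kit for low input gave the cDNA, which was amplified by PCR and sequenced on a HiSeq, per the labels' protocols. The authors deposited FPKM, 1 value per gene symbol and library; TopHat2, Cufflinks 2.1.1 and build mm9 were used, per the submitters' processing notes. The annotation, options and any scaling between libraries are not given in the sources used here. FPKM summed to 396769 to 786366 per library. The highest sums, 684417 and 786366, belonged to the isolated islet libraries with Ins2 above 0. Read counts and depth are unknown, so no counting interval is given.

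Values were taken as log2(FPKM + 1) without further scaling. Genes at 1 FPKM or more in at least 4 libraries (13433 of 23234) entered 1 model in limma 3.58.1 (R 4.3.3, statmod 1.5.0). It held all 12 libraries and no term other than group, its variances were moderated robustly along a trend with expression, and p-values were two-sided. They were adjusted by the Benjamini-Hochberg method across the 13433 genes, with a threshold of 0.05. Adjusted p-values are from this fit, which was tested on simulated data, unless a block or a left-out library is named beside them. Single values between graft ages were compared by exact permutation, where 4 against 4 libraries give a smallest p of 0.0286 and 4 pairs one of 0.125. The rule for named genes took the 4 genes, fixed regulators, ligands and markers, up to 4 genes of each of 14 lists with the smallest p, and the genes of most similar profile, gene models without a name and short RNAs apart. The genes, lists and rules were chosen with earlier results of these data known.

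Pairing was checked on deviations from group means over all tested genes. Same-numbered day 60 and day 120 grafts correlated at 0.180 to 0.442 and differently numbered ones at -0.383 to 0.098, so these numbers were taken to pair the grafts. The labels state no pairing, so what grafts of the same number share is not known. Grafts and isolated islets of the same number correlated at -0.078 to 0.020 and share only a number. Alternatives covered the pseudocount, filter, scaling, replicate block, variance model and each library left out; leaving libraries out of the counts for the other lists was added after seeing the data.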

Additional observations from a re-analysis of the deposited data

Results flagged for a closer look

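Pdpn in day 60 grafts had a library far from the others. Replicate 1 was at 22.9 FPKM and the other day 60 grafts at 5.19, 4.91 and 4.53 FPKM, so the gap to the next library took up a share of 0.964 of the whole range, above Dixon's critical value for 4 samples. This library also had the highest Lyve1 and Mrc1 levels and the lowest Prox1 and Flt4 levels of the 12. Of 27 groups of 4 values examined, this was the only 1 past the critical value, and chance flags about 1 in 20 such groups.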

How the results depend on the processing

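For Prox1, Lyve1 and Pdpn the direction against isolated islets was kept under every alternative tried. No alternative of the limma fit brought any of the 4 genes past the threshold between the graft ages. Among the levels relative to a list, Flt4 minus endothelial genes reached p = 0.0286 by exact permutation without day 60 graft replicate 4. With a pseudocount of 5 the day 60 difference was -1.02 for Prox1 and 0.86 for Lyve1 and the day 120 difference of Prox1 -0.75, and with 0.1 the day 60 difference of Prox1 was -2.19. Flt4 at day 60 against isolated islets turned to -0.062 (sum without hormone and acinar genes) and -0.33 (quantile normalization), and ranged from -0.14 to 0.30 with single libraries left out. Prox1 minus endocrine genes between graft ages turned to 0.088 with a pseudocount of 0.1 and to 0.11 without both libraries that stood apart, and ranged from -0.37 to 0.11 with single grafts left out. Over the same omissions Lyve1 minus endothelial genes ranged from -0.36 to 0.028 and Flt4 minus endothelial genes from 0.35 to 1.03.

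Calls on the lymphatic lists, 15 at day 60 and 13 at day 120, were 5 and 7 with a filter of 5 FPKM. At day 120 they were 7 with a pseudocount of 5, 7 with quantile normalization and 2 with endocrine scaling, and 6 to 16 with single libraries left out. Over all genes, day 60 calls were 5865, or 3241 with endocrine scaling and 3574 with the replicate block in a fit of 2 groups, where numbers do not pair grafts with islets. Day 120 calls were 4212, or 443 with endocrine scaling, 7571 without both libraries that stood apart, and 1986 to 6031 with single libraries left out, at 2048, 2092 and 1986 without isolated islet replicates 2, 3 and 4 and at 2541 and 2553 without day 120 graft replicates 2 and 4. Between graft ages 2 genes were called, 4 with no filter, 1 with a filter of 5 FPKM, 3 with the replicate block and 2 to 21 with single libraries left out, the 21 without day 60 graft replicate 4. The causes were not tested. The block changed no call of the 4 genes. Of called genes 71.8% were higher at day 60 and 77.6% at day 120, or 45.2% and 45.6% with quantile normalization, 60.6% and 63.8% with upper-quartile scaling, 50.9% and 66.5% with the sum without hormone and acinar genes, and 85.8% and 28.4% with endocrine scaling. As deposited the median log2 difference of all genes was 0.27 and 0.30. Relative to that median, over 5 scalings, Prox1 lay between -2.12 and -2.01 at day 60 and between -1.52 and -1.47 at day 120, Lyve1 between 1.20 and 1.39 and between 0.77 and 0.94, Pdpn between 1.02 and 1.23 and between 0.32 and 0.50, and Flt4 between -0.29 and -0.06 and between 0.22 and 0.40. Flt4 was not in the 5 FPKM fit. Unknown depth limits what low values such as those of Flt4 can show.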
